A study of Mus musculus with 6 samples.

Results

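The 34 genes described here are interferon response genes, 3 of them Ifitm genes, followed in mouse CD4 T cells that received the transcription factor E47. They were taken by exact gene symbol from the array annotation, and 32 of the 34 could be measured among 18193 genes in all. Isg15, a ubiquitin-like modifier, has only a probe set shared with another gene, and Ifi44 was not found in the annotation used, so neither is analysed here. Each measured gene was read from 1 probe set, the one with the highest mean log2 intensity over the arrays.

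RNA was profiled on 6 Affymetrix arrays, 3 from cells carrying an E47-ER retrovirus and 3 from cells carrying a control bHLH-ER retrovirus. Both groups started as CD4+CD25- lymph node cells of C57BL/6 mice and were driven towards a regulatory T cell (Treg) state for 2 days. They were cultured with 5 ng/ml TGF-β1, 200 U/ml IL-2 and plate-bound antibodies to CD3 (2 µg/ml) and CD28 (1 µg/ml), and virus was added on day 1. CD4+Thy1.1+ cells, those carrying virus, were sorted and given 6 hours of 1 µM tamoxifen with IL-2 and the same antibodies. Tamoxifen releases proteins fused to the estrogen receptor domain (ER) into the nucleus, and the controls received it too. Each of 3 experiments gave 1 control and 1 E47 sample, from pools of 3, 3 and 4 mice aged 7, 8 and 9 weeks in experiments 1, 2 and 3. The labels give the control construct by name alone.

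Interferons are secreted proteins that signal through JAK kinases to transcription factors. Complexes that hold STAT2 and IRF9 bind interferon-stimulated response elements (ISRE) in promoters, and gamma-activated sites (GAS) are the other main class of element. The induced genes encode proteins that sense viral RNA, cut or trap viral nucleic acid, block viral entry or feed back on the pathway. In lymphocytes many of them are also kept at a resting level by weak, continuous interferon signalling.

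The 6 arrays had median intensities between 34.3 and 35.4, and no value was 0 or below. Tcf3, the gene that encodes E47, had log2 levels of 8.91, 8.94 and 8.91 in the controls and 8.95, 8.81 and 8.97 in the E47 samples. All 9 measured T cell markers lay above the median level of all genes. Foxp3, the defining Treg factor, had log2 levels of 6.42, 8.16 and 6.29 in the controls and 6.36, 7.83 and 6.07 with E47, highest in experiment 2 in both groups. Nothing in the labels says that the samples of an experiment came from different mice, so the p-values measure the spread between these 6 samples.

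The interferon response genes ranged widely in level, from a log2 intensity of 3.08 (Mx1) to 11.67 (Ifi35). The median of the 32 was 6.31, close to the 6.08 of all genes, and 17 of the 32 lay above the latter. The bright group held Ifi35, Samhd1, Irf1, Bst2, Gbp2 and all 3 Ifitm genes. Several classical interferon-induced genes, Mx1, Ifit1, Ifit3, Irf7, Rsad2, Oas2, Oas3, Oasl1 and Oasl2, lay below the median. Ifit2 and Oas1a, of the same families, lay above it. Whether these dim genes were above background was not tested, and differences among them are the least certain.

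**Figure D1:**
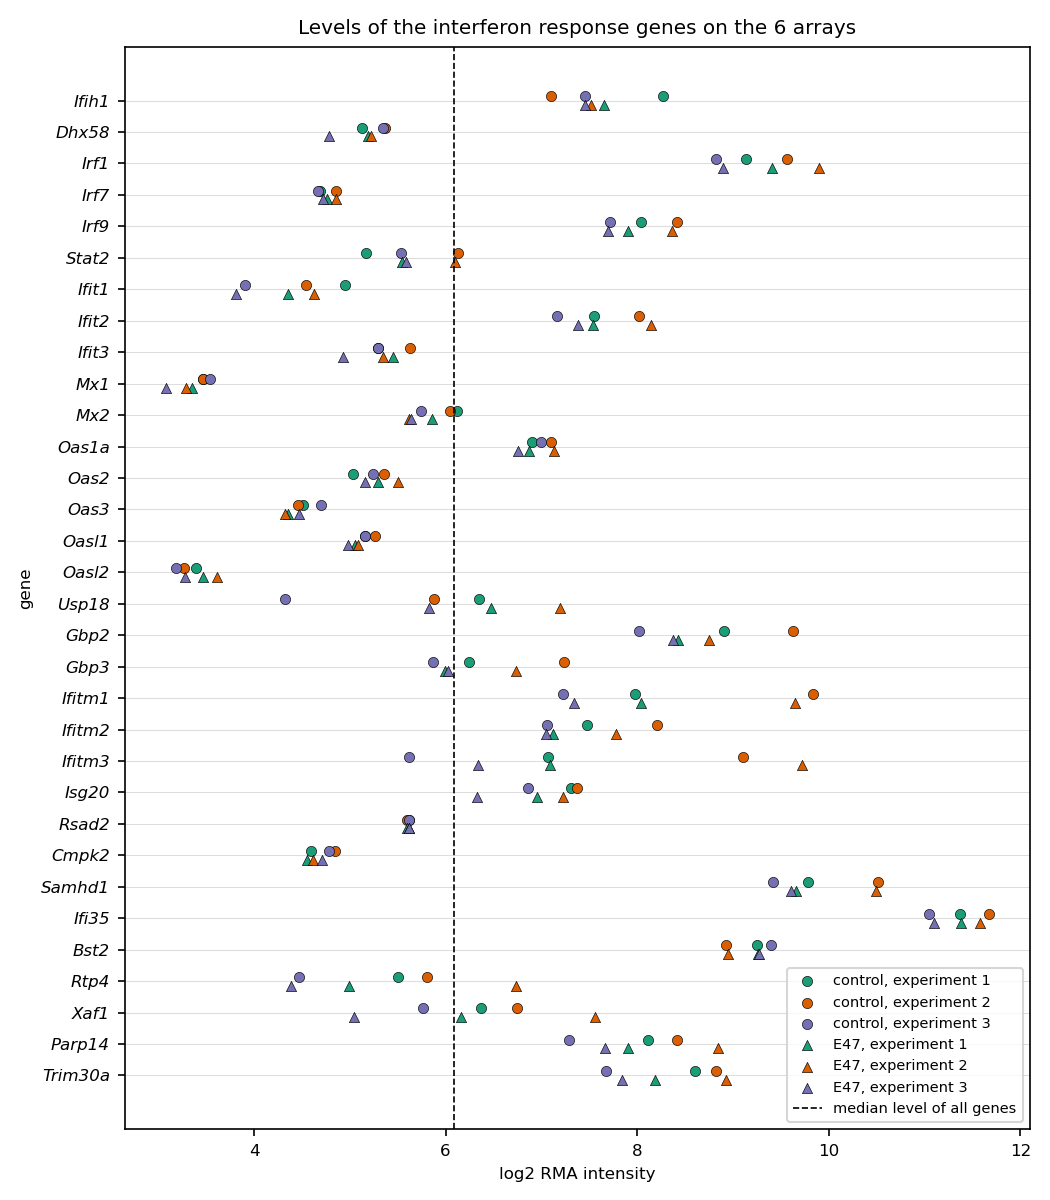
Log2 RMA intensity (horizontal axis) of the 32 measured interferon response genes (vertical axis) on each array; colours mark the experiment, circles the controls and triangles E47, and the dashed line is the median level of all genes. Ifitm1 and Ifitm3 have experiment 2 at the right and experiment 3 at the left in both groups.

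The design asks how E47 alters RNA levels within 6 hours of tamoxifen, and no interferon response gene passed that test. In the paired fit, 0 of 32 genes passed an adjusted p of 0.05 (limma, Benjamini-Hochberg over all genes), against 1.14% of all 18193 genes (0.781% higher and 0.363% lower with E47). At an unadjusted p of 0.05, 7 of the 32 passed. Of these, 4 were lower with E47, against a background of 6.9% of genes, and 3 were higher, against 5.1%. The fit without the experiment term also called 0 of 32 (0.247% of all genes), with 1 gene under an unadjusted 0.05.

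The differences were small on both sides of 0. The log2 fold change, E47 minus control, was below 0 in 21 genes (65.6%, against 57.7% of all genes) and above 0 in 11. Its median was -0.04 over the 32 genes and -0.03 over all genes. All 3 pairs were lower with E47 for 8 genes (25%, against 20.2%) and higher for 4 (12.5%, against 14.4%). The 95% interval of the difference, unadjusted for the number of genes, lay within 1 log2 unit of 0 for 31 of the 32, as it did for 98.8% of all genes. The exception was Usp18.

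Usp18 encodes the protease that removes ISG15 from proteins and dampens signalling at the type I interferon receptor. Its log2 levels were 6.35, 5.87 and 4.33 in the controls of experiments 1, 2 and 3, and 6.48, 7.19 and 5.83 with E47. E47 was the higher of each pair, by 0.13, 1.32 and 1.499, but the groups overlapped, since the controls spanned more than any pair differed. The log2 fold change was 0.98 (SE 0.25, 95% interval 0.37 to 1.59, limma adjusted p = 0.213). Without experiment 1, the experiment with the small difference, Usp18 passed at 1.41 (limma adjusted p = 0.00125). With no experiment term, the difference was 0.39 without control 3 and 0.63 without E47 2. Over all alternatives its limma adjusted p ran from 0.00125 to 1.

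Ifitm3, a membrane protein that restricts viral fusion, had the next largest positive difference. Its levels were 7.07, 9.11 and 5.62 in the controls and 7.09, 9.72 and 6.34 with E47. The pairs differed by 0.02, 0.61 and 0.72, far less than the spread between experiments within either group. The log2 fold change was 0.45 (SE 0.14, limma adjusted p = 0.307), and 0.67 without experiment 1, where it passed (limma adjusted p = 0.0321, with 0.0321 to 1 over all alternatives). With no experiment term, single arrays turned its direction: it was -0.37 without control 3, -0.55 without E47 2 and 1.37 without control 2. Its relatives did not follow it: Ifitm1 stood at -0.00 (SE 0.09, 1 pair of 3 lower with E47) and Ifitm2 at -0.26 (SE 0.10, 3 of 3 lower), with limma adjusted p of 0.994 and 0.402.

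Irf1, an interferon-induced transcription factor that acts on class I antigen presentation genes among others, had the next largest. Levels were 9.14, 9.56 and 8.82 in the controls and 9.41, 9.90 and 8.90 with E47. E47 was higher within each experiment, and the groups overlapped across experiments. The log2 fold change was 0.23 (SE 0.09, limma adjusted p = 0.385).

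On the negative side stood Isg20, an exonuclease that degrades viral RNA. Its levels were 7.31, 7.37 and 6.86 in the controls and 6.96, 7.22 and 6.32 with E47. All 3 pairs were lower with E47, and the groups overlapped, for a log2 fold change of -0.35 (SE 0.10, limma adjusted p = 0.257). Gbp2, a guanylate binding protein that acts on membranes around intracellular pathogens, had 8.90, 9.63 and 8.02 in the controls and 8.43, 8.75 and 8.38 with E47. Its pairs disagreed, with E47 lower in experiments 1 and 2 and higher in experiment 3, and the log2 fold change was -0.33 (SE 0.22, limma adjusted p = 0.592). Mx2, a gene of the dynamin-like Mx GTPase family, had 6.12, 6.04 and 5.74 against 5.86, 5.61 and 5.64, lower with E47 in every pair. Its log2 fold change was -0.26 (SE 0.09, limma adjusted p = 0.347).

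Control and E47 levels failed to overlap for 2 of the 32 genes, both lower with E47, against 7.13% of all genes in that direction. They were Mx1, of the Mx GTPase family, and Oasl1, a member of the oligoadenylate synthetase family. Both are dim. Mx1 lay at 3.47, 3.47 and 3.54 in the controls and 3.35, 3.29 and 3.08 with E47, a log2 fold change of -0.25 (limma adjusted p = 0.387). Oasl1 lay between 5.15 and 5.26 in the controls and between 4.98 and 5.09 with E47, a log2 fold change of -0.15 (limma adjusted p = 0.503). No gene of the group had all E47 samples above all controls, an arrangement found in 4.65% of all genes.

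The 15 genes not described sample by sample anywhere here had levels from 3.19 to 11.67 and log2 fold changes from -0.21 to 0.17, with limma adjusted p of 0.439 or more. They include the RNA sensors Ifih1 and Dhx58, the factors Stat2 and Irf7, and Rsad2, whose product makes a chain-terminating nucleotide. In the probe set used, Rsad2 was at 5.59 to 5.62 on every array.

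**Figure D2:**
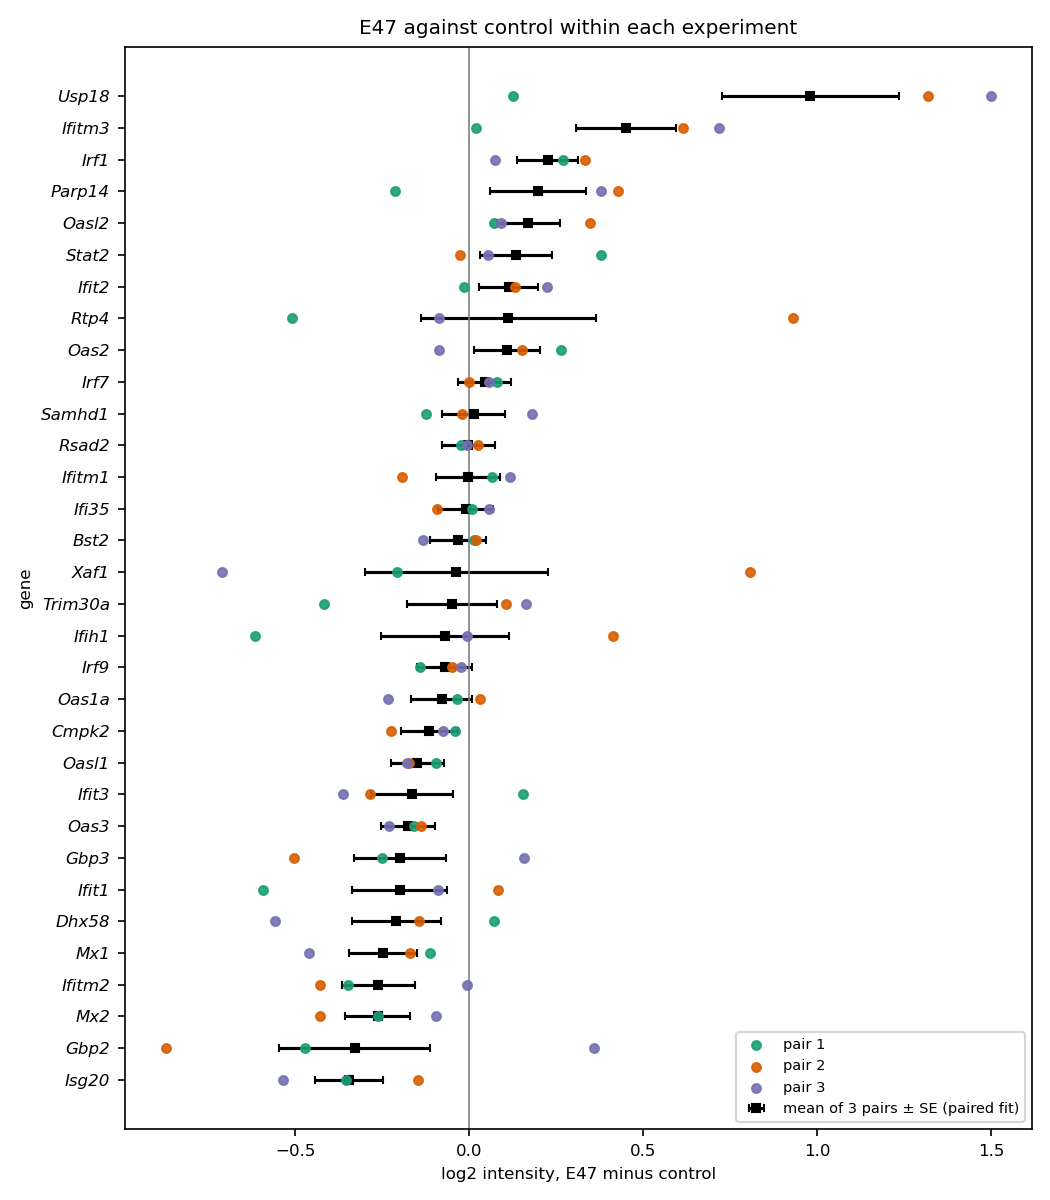
Difference in log2 intensity, E47 minus control (horizontal axis), for each of the 32 genes (vertical axis, ordered by the mean difference); coloured points are the 3 pairs and black squares the mean with its SE from the paired fit. Usp18 at 0.98 stands apart at the top, with 1 of its pairs near 0, while the other genes lie between -0.35 and 0.45.

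The larger differences were between experiments. Within the same fit, limma's F test of the experiment term called 10 of 32 genes (31.2%), against 3.2% of all genes (adjusted p of 0.05, Benjamini-Hochberg over all genes). They were Ifitm1, Ifitm2, Ifitm3, Irf1, Irf9, Ifit2, Gbp3, Samhd1, Parp14 and Trim30a. In all 10 the experiment 2 mean was highest, which 1.65% of all genes combined with a passed F test, against 1.4% that passed with experiment 2 lowest (0 of these 32). In all 10 the experiments fell in the order 2, 1, 3 from high to low, and the span between highest and lowest experiment ran from 0.68 to 3.44 log2 units. Age of the mice differed with every experiment and the number pooled with experiment 3 alone, and what else differed between experiments cannot be told apart from these. Nor, in bulk RNA, can fewer cells expressing a gene be told from less RNA per cell.

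The F test compares each experiment's control and E47 arrays with the spread left after both terms, so its p-values rest on 2 arrays per experiment. Leaving out experiment 2 left 0 of the 32 called and 0 of all genes (limma), with 13 of the 32 and 1209 of all genes under an unadjusted p of 0.05. Without experiment 1 the count was 17 (53.1%, against 5.67% of all genes). Without experiment 3 it was 4 (12.5%, against 1.52%), namely Gbp3, Ifitm1, Ifitm3 and Samhd1. Adjusting over all probe sets left 5 of the 10 (15.6%, against 1.85%): Irf1, Ifit2, Ifitm1, Ifitm3 and Samhd1. A variance prior with a trend and robust fitting called 18 (56.2%, against 9.95%).

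The order was also found among uncalled genes. The counts that follow include the 10 called genes, which were picked by their differences between experiments. Of those 10, all had the order, 10 had both experiment 2 arrays above the other 4, and 9 had both experiment 3 arrays below. The order was 2, 1, 3 in 22 of 32 genes (68.8%, against 18.3% of all genes). Both arrays of experiment 2 lay above the other 4 in 17 genes (53.1%, against 11.1%), and both of experiment 3 lay below the other 4 in 16 (50%, against 7.54%). The same held inside each construct, where experiment 2 was highest among controls and among E47 arrays for 21 genes (65.6%, against 17.1%). Experiment 3 was lowest in both for 18 (56.2%, against 12.3%).

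Experiments were also compared pair by pair, at a limma adjusted p of 0.05. At this threshold 14 genes were called higher in experiment 2 than in experiment 3 (43.8%, against 2.29% of all genes). None was called lower (0, against 2% of all genes). Against experiment 1, experiment 2 was called higher in 4 genes, Stat2, Ifitm1, Ifitm3 and Samhd1 (12.5%, against 1.32%), and lower in 0 (1.41% of all genes). For experiment 3 against experiment 1, 0 genes were called lower (0.0055% of all genes) and 0 higher (0%). At an unadjusted p of 0.05, 14 of the 32 were lower in experiment 3 (43.8%, against 4.05%) and 0 were higher (4.02% of all genes). With no threshold, experiment 2 exceeded experiment 1 in 25 genes (78.1%, against 49.2%) and experiment 3 in 27 (84.4%, against 46%). Experiment 3 lay below experiment 1 in 26 (81.2%, against 48.8%). The median difference over the 32 genes was 0.24 for experiment 2 minus 1, -0.26 for 3 minus 1 and 0.62 for 2 minus 3. The corresponding medians over all genes were -0.00, 0.00 and -0.02.

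**Figure D3:**
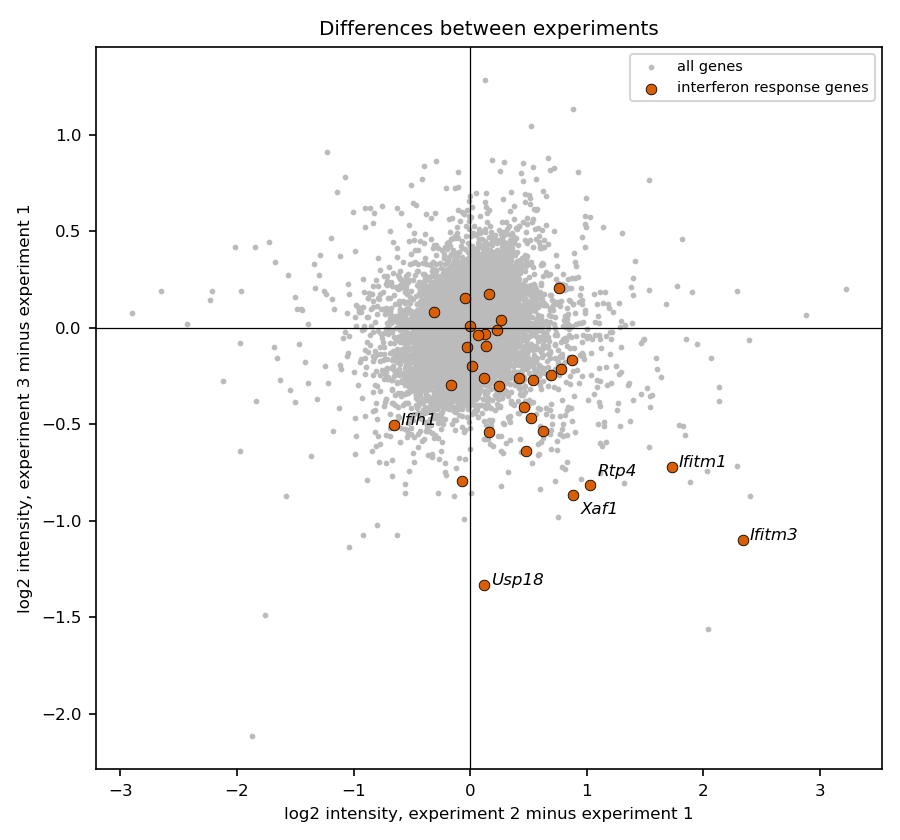
Difference in log2 intensity between experiments 2 and 1 (horizontal axis) and between experiments 3 and 1 (vertical axis) for all 18193 genes (grey) and the 32 interferon response genes (orange). Most orange points lie below 0 on the vertical axis and right of 0 on the horizontal one, with Ifitm3 at 2.34 and -1.10 the farthest out.

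Ifitm3 and Ifitm1 had the widest spans of the 32 genes. These small membrane proteins sit in the plasma and endosomal membranes, and their genes neighbour each other on chromosome 7. Ifitm1 had log2 levels of 7.98, 9.83 and 7.22 in the controls of experiments 1, 2 and 3, and 8.04, 9.64 and 7.34 with E47. E47 and control differed by 0.07, -0.19 and 0.12 in experiments 1, 2 and 3, while experiment 2 stood 2.45 above experiment 3, a 5.48-fold difference (limma adjusted p = 8.17e-04), and 1.73 above experiment 1. Ifitm3, with the levels given above, differed by 3.44 between experiments 2 and 3, a 10.8-fold difference (limma adjusted p = 0.00124), and by 2.34 between 2 and 1.

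Ifitm2 varied less. Its levels were 7.47, 8.20 and 7.06 in the controls and 7.12, 7.77 and 7.05 with E47, with experiment 2 on top in both groups and 0.94 above experiment 3 (limma adjusted p = 0.0156). The family members Ifitm5, Ifitm6, Ifitm7 and Ifitm10 all lay below the median level of all genes, and 0 of the 4 passed the F test. The probes of close relatives may share sequence, which was not examined.

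A promoter of each of the 3 Ifitm genes is printed with the pathway's own binding letters marked. Each is the 250 bases before a transcription start listed in RefSeq (GRCm38.p6), read along the strand of the gene, with ISRE and GAS letters in capitals. Ifitm1 lies on the plus strand (chr7:140967826-140968075), and Ifitm2 (chr7:140955962-140956211) and Ifitm3 (chr7:141010745-141010994) on the minus strand. The window of Ifitm3 adjoins its annotated gene. Those of Ifitm1 and Ifitm2 lie inside the annotated genes, which run from 140967429 to 140969827 and from 140954837 to 140959686. The bases before the outer 5' ends of Ifitm1 and Ifitm2 were not searched.
Ifitm1: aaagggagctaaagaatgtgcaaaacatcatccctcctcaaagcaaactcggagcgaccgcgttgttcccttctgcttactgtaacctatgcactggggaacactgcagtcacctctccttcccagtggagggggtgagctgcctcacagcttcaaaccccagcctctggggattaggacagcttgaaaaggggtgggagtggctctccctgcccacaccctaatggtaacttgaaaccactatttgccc
Ifitm2: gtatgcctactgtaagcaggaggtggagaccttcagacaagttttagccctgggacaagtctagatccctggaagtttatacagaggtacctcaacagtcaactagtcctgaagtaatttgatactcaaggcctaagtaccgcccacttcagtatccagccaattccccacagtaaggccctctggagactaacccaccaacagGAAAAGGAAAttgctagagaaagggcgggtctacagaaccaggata
Ifitm3: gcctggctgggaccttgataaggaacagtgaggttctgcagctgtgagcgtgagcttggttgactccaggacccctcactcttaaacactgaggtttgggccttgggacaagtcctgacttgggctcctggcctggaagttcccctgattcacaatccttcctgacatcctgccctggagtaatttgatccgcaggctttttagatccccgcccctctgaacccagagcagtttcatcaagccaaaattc
Of these, Ifitm2 held the ISRE letters, that is GAAA, any 2 bases and GAAA again, 46 to 37 bases before the start, and Ifitm1 and Ifitm3 held neither these nor the GAS letters TTCNNNGAA. A stretch without a match says only that the letters are not in this window. Ifitm2, with the letters, had the smallest span between experiments of the 3. Over the measured interferon response genes with a promoter entry, the median span was 0.76 in the 11 with ISRE letters and 0.69 in the 14 without. Whether the letters bear on the span was not tested.

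Among the transcription factors, Irf1 and Irf9 passed the F test. Irf1, with the levels given above, was 0.87 higher in experiment 2 than in experiment 3 (limma adjusted p = 0.0107). Irf9, the DNA-binding subunit that works with STAT2, had 8.04, 8.42 and 7.72 in the controls and 7.90, 8.37 and 7.70 with E47. Its 2 arrays of each experiment sat close together, and experiment 2 exceeded experiment 3 by 0.68 (limma adjusted p = 0.0163). Stat2 was highest in experiment 2 as well, at 6.13 and 6.10 against 5.16 to 5.58 elsewhere, and missed the F test (limma adjusted p = 0.0561). Irf7, the amplifier of type I interferon production, was dim and nearly level at 4.67 to 4.85.

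The effectors that passed cover several activities. Samhd1, which breaks down the nucleotides that viral reverse transcription needs, had 9.79, 10.52 and 9.42 in the controls and 9.66, 10.50 and 9.60 with E47. Experiment 2 lay above the other 4 arrays by more than the control and E47 arrays of any experiment differed, and exceeded experiment 3 by 1.00 (limma adjusted p = 0.00793). Ifit2, which binds foreign RNA and blocks its translation, had 7.55, 8.02 and 7.16 in the controls and 7.54, 8.15 and 7.38 with E47. Its span was 0.81 (limma adjusted p for experiment 2 against 3 = 0.0122).

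Gbp3, a guanylate binding protein, had 6.24, 7.24 and 5.87 in the controls and 5.99, 6.73 and 6.02 with E47. Both arrays of experiment 2 stood above the rest, while experiments 1 and 3 overlapped, which made it the 1 gene of the 10 whose experiment 3 arrays were not both lowest. Experiment 2 exceeded experiment 3 by 1.04 (limma adjusted p = 0.0226).

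Parp14, an ADP-ribosyltransferase, had 8.12, 8.42 and 7.29 in the controls and 7.90, 8.85 and 7.66 with E47. Trim30a, a tripartite motif protein that restrains inflammatory signalling, had 8.60, 8.82 and 7.68 against 8.19, 8.93 and 7.84. In both genes experiment 3 was low and experiment 2 high under either construct. The differences between experiments 2 and 3 were 1.16 for Parp14 and 1.12 for Trim30a, with limma adjusted p of 0.0189 and 0.0167. Averaged over its probe sets, Parp14 no longer passed the F test (span 0.69, limma adjusted p = 0.138).

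**Figure D4:**
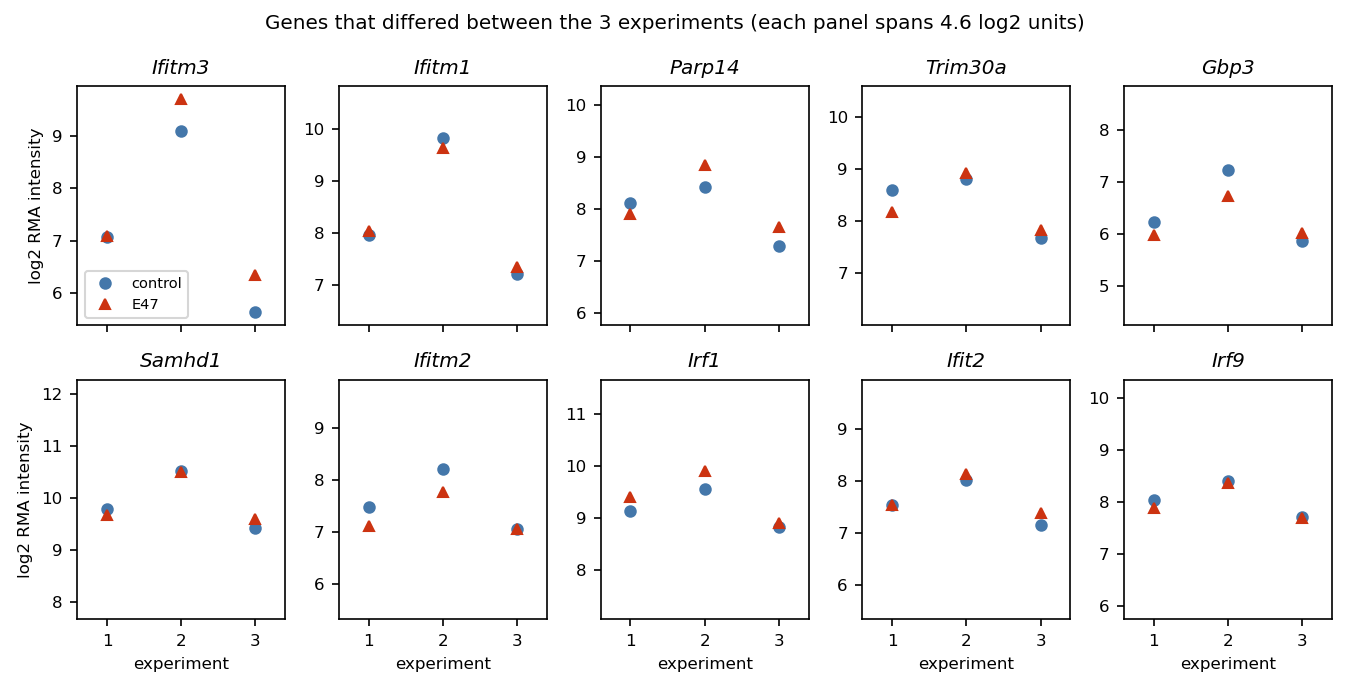
Log2 RMA intensity (vertical axis) in experiments 1, 2 and 3 (horizontal axis) for the 10 genes past the F test, ordered by their span; circles are controls and triangles E47, 1 array each, and the vertical axes cover the same width in every panel. Experiment 2 is highest in every panel, and the control and E47 points of an experiment lie close together compared with the distance to experiment 2 for Ifitm1 and Ifitm3.

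Among the uncalled genes, Usp18, Rtp4 and Xaf1 spanned more than 1 log2 unit between experiments, as did 5 of those called, which made 8 in all (25%, against 1.56% of all genes). Rtp4, a chaperone for membrane receptors that is strongly interferon-induced, had 5.50, 5.81 and 4.47 in the controls and 4.99, 6.74 and 4.39 with E47. Xaf1, a pro-apoptotic interferon-induced protein, had 6.37, 6.75 and 5.76 against 6.16, 7.56 and 5.05. Their pairs diverged too, which widened the error, and the F test gave limma adjusted p of 0.0626 for Rtp4 and 0.0834 for Xaf1. These genes, and those of the next paragraph, were picked out after their values were seen.

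The remaining genes did not have the order 2, 1, 3. Ifit1, Mx1 and Mx2 were highest in experiment 1 and lowest in experiment 3. Oas3 and Cmpk2 were highest in experiment 3, and Stat2 and Oas2 were highest in experiment 2 and lowest in experiment 1. The others were Bst2, Ifih1 and Rsad2. Bst2, the tetherin that holds budding virus at the cell surface, was lowest in experiment 2, at 8.93 and 8.95 against 9.25 to 9.40 on the other arrays (F test, limma adjusted p = 0.156). It was the 1 gene of the 32 with both experiment 2 arrays below the other 4 (3.12%, against 15.6% of all genes). Ifih1, a sensor of long double-stranded RNA, was highest in experiment 1, but the pair there, 8.27 in the control and 7.65 with E47, differed by -0.62. Rsad2 differed by 0.01 between experiments in the brightest of its 3 probe sets. Its dimmer sets, at 3.36 to 3.85, varied more between arrays.

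The span was wider among bright genes. Over the 17 genes above the median level of all genes it had a median of 0.94, against 0.21 for all bright genes, and 10 of the 17 passed the F test (58.8%, against 5.18%). Over the 15 dim genes the median was 0.23, against 0.17 for all dim genes, and 0 of 15 passed (1.22% of all dim genes). At an unadjusted p of 0.05 the F test gave 19 of all 32 genes, against 17.9% of all genes.

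Of the 32 genes, 11 had more than 1 probe set. All 5 probe sets of Samhd1 had their highest array in experiment 2. The second probe set of Gbp2 gave a log2 fold change of -0.36 beside -0.33 and that of Trim30a 0.10 beside -0.05. The second sets of Rtp4, Xaf1 and Parp14 lay between 2.94 and 4.40 and did not show the spans of the brighter ones. The set used for Ifi35 lay between 11.04 and 11.67, and its other sets lay lower, between 8.96 and 9.77.

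The RefSeq promoter table used here (GRCm38.p6) held entries for 27 of the 34 genes, 34 promoters in all, and the ISRE letters (GAAA, any 2 bases, GAAA) were searched on both strands, as were the others named next. They occurred before a listed start of 12 of these genes (44.4%), against 3.46% of all 27025 genes. The GAS letters TTCNNNGAA, which can share bases with an ISRE, occurred in 6 (22.2%, against 8.13%). The E-box letters CAGCTG, of the kind E47 binds, occurred in 5 (18.5%, against 14.7%), and CAGGTG in 5 (18.5%, against 19.4%). The genes with CAGCTG were Irf1, Irf9, Stat2, Ifit3 and Ifitm3. E-box letters are not capitalised in the printed promoters. CAGCTG lies 212 to 207 bases before the start in that of Ifitm3 and 139 to 134 in that of Irf1. A match is a description of letters, not a site in use. Of the measured genes with ISRE letters 3 of 11 passed the F test between experiments, and of those without them 6 of 14.

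A promoter entry each of Gbp3, Irf1 and Ifit1 shows the arrangement of these letters. Gbp3 and Irf1 each have another entry (chr3:142560106-142560355 and chr11:53770223-53770472), which holds neither the ISRE nor the GAS letters and is not printed. Gbp3 (chr3:142559794-142560043, plus strand) passed the F test and holds overlapping ISRE matches 45 to 36 and 39 to 30 bases before the start. Irf1 (chr11:53769764-53770013, plus strand) also passed and holds a GAS match 90 to 82 bases before it. Ifit1 (chr19:34640639-34640888, plus strand) encodes a protein that binds viral RNA ends, was dim at 3.81 to 4.95, did not pass, and holds ISRE matches 104 to 95 and 85 to 76 bases before it. ISRE and GAS letters on either strand are in capitals (GRCm38.p6).
Gbp3: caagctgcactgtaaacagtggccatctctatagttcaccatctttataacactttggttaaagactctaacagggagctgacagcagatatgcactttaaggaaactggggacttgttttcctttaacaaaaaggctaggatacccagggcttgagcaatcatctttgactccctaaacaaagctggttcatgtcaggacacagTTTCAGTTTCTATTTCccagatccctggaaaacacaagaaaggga
Irf1: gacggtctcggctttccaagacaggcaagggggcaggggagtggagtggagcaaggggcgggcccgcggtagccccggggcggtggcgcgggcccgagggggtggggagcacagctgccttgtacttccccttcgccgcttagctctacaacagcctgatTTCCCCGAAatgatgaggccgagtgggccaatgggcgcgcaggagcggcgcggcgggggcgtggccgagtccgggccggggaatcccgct
Ifit1: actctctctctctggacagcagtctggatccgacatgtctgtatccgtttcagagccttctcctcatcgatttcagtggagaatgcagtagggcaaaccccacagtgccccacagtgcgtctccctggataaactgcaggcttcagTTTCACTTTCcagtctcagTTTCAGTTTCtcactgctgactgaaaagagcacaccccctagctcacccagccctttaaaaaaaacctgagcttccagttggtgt
Of the genes that passed the F test between experiments, Gbp3 carries 2 ISRE matches and Irf1 carries none. Ifit1 carries 2 and did not pass, and it is dim, as were 15 of the 32 genes, of which 0 passed. Whether the letters go with the F test was not tested.

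The rest of the interferon pathway was read from 9 lists, 121 of whose 152 symbols were measured. Against control, 3 of the 121 rose with E47 and 0 fell in the paired fit (limma, Benjamini-Hochberg over all genes), against 0.781% and 0.363% of all genes. At an unadjusted p of 0.05, 17 were higher and 11 lower, against 5.1% and 6.9% of all genes. With the experiment as a random block, Ly6e (limma adjusted p = 0.266) and Socs3 (0.422) no longer passed, and Tdrd7 did (0.00468). Tdrd7, a tudor-domain protein that limits virus-induced autophagy, had 5.69, 5.82 and 5.52 in the controls and 6.89, 7.42 and 6.83 with E47. The groups did not overlap, and the rise was 1.37 (SE 0.10, limma adjusted p = 0.00335, and 0.0304 without the experiment term). Without experiment 3 its limma adjusted p was 0.05001, and over all alternatives it ran from 6.14e-05 to 0.181. The largest came from single arrays left out with no experiment term, where leaving out E47 2 alone kept the call. Averaged over the probe sets of the gene, the rise was 0.65.

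Ly6e, a GPI-anchored protein that modulates viral entry, had 8.53, 8.79 and 7.68 in the controls and 9.24, 10.04 and 8.69 with E47. Every pair rose, although the groups overlapped across experiments, and the rise was 0.99 (SE 0.12, limma adjusted p = 0.0188). The call was lost without the experiment term (limma adjusted p = 0.713), without experiment 2 (0.0853) and without experiment 3 (0.156), and over all alternatives the adjusted p ran from 0.000202 to 1. With 1 array left out and no experiment term, the difference ran from 0.63 (without E47 2) to 1.31 (without E47 3). Socs3, an inhibitor of JAK kinases, also rose, by 1.06 (limma adjusted p = 0.0193), and its call was lost in the same fits (0.823, 0.0645 and 0.145, with 0.000204 to 1 over all alternatives). With 1 array left out and no experiment term, its difference ran from 0.40 (without E47 2) to 1.55 (without control 2).

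Of the 6 receptors 0 passed, with log2 fold changes from -0.08 to 0.56, and those with the lowest p came near the threshold. Ifnar1, the first chain of the type I interferon receptor, had a log2 fold change of 0.56 (limma adjusted p = 0.0531). Il10rb, shared by the lambda interferon and IL-10 receptors, had 0.47 (limma adjusted p = 0.0665). Among ligands 0 of 10 passed, and Ifnb1 was dim at 3.66 to 4.12.

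Between experiments, 25 of the 121 passed the F test (20.7%, against the 3.2% of all genes), 22 of them highest in experiment 2. The immunity-related GTPases and other Gbp genes, which attack the vacuoles of intracellular pathogens, gave 6 of 8: Gbp6, Gbp7, Irgm1, Irgm2, Iigp1 and Igtp. All 8 had the order 2, 1, 3, with a median of 0.99 between experiments 2 and 3. Iigp1 had 7.98, 8.58 and 7.10 in the controls and 7.93, 8.54 and 7.14 with E47, so that its control and E47 arrays matched within each experiment.

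The other interferon-stimulated genes gave 11 of 49, among them Parp9, a relative of Parp14, and its partner Dtx3l. Antigen presentation gave 2 of 13, the immunoproteasome subunits Psmb8 and Psmb9. Receptors gave 1 of 6, Ifngr1, a chain of the interferon gamma receptor, at 9.19 and 9.27 in experiment 2 against 8.17 to 8.46. Signalling gave 2 of 9, Socs3 and Nmi. Zbp1, a nucleic acid sensor, was highest in experiment 2, whereas Tlr7, an endosomal RNA receptor, and Irf5, a factor downstream of it, were lowest there.

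Interferon gamma itself was measured. Ifng had 9.17, 9.65 and 9.15 in the controls and 9.02, 9.65 and 8.84 with E47. Both experiment 2 arrays lay above the other 4, and the F test gave a limma adjusted p of 0.0535, which did not pass.

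**Figure D5:**
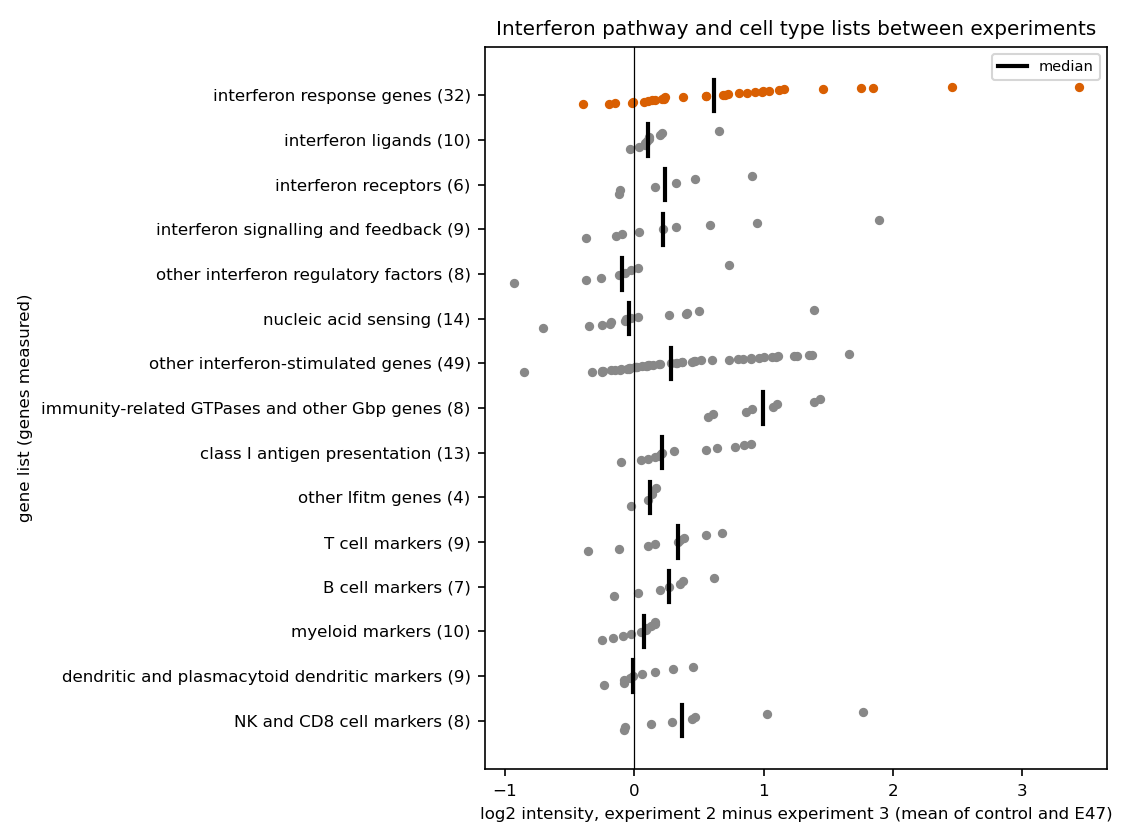
Difference in log2 intensity between experiments 2 and 3, averaged over control and E47 (horizontal axis), for each measured gene of the interferon response group (orange) and of the pathway and cell type lists (grey, rows of the vertical axis with the number of genes); black bars are medians. The medians of the interferon response genes (0.62) and the immunity-related GTPases (0.99) lie farthest to the right of 0, followed by the NK and CD8 cell markers (0.37). Of the 32 interferon response genes, 27 lie to the right of 0. Medians to the left of 0 are those of the other regulatory factors, nucleic acid sensing and dendritic markers.

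Cell type markers were set beside the experiment differences. The 9 T cell markers had a mean log2 level of 10.90, 10.88 and 10.61 in the controls and 10.97, 10.98 and 10.78 with E47, lowest in experiment 3 in both groups. Their median difference between experiments 2 and 3 was 0.34, and 0 of 9 passed the F test, which 3.2% of all genes passed. Their summed level was 95.46 to 98.1 in controls and 97.05 to 98.83 with E47. The 8 measured NK and CD8 cell markers had a mean log2 level of 5.75, 6.15 and 5.66 in the controls and 5.85, 6.34 and 5.83 with E47, highest in experiment 2 in both groups, with a summed level of 45.28 to 49.18 in controls and 46.63 to 50.69 with E47. Of the 8, 3 passed the F test (Cd8a, Klrd1 and Eomes), against the same 3.2% of all genes, and 4 lay above the median level of all genes. B cell markers lay below that median (0 of 7 above it), and 1 of 7, Ms4a1, passed. Myeloid and dendritic markers each had 1 gene above the median, of 10 and 9, and 0 passed the F test, with Siglech, of plasmacytoid dendritic cells, at 5.19 to 5.36. The summed levels, control and then E47, were 33.57 to 35.63 and 33.19 to 34.77 for B cell, 45.72 to 46.19 and 44.59 to 45.48 for myeloid, and 45.04 to 45.6 and 44.48 to 45.19 for dendritic markers. The part of these cells in the differences between experiments was not tested.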

How the data were processed

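The deposited values are linear intensities, 1 for each probe set on each array, made with RMA per the submitters' processing notes, which name no version. RMA corrects background and summarises probes before any value used here, and log2 of each deposited value was taken. Probe sets were named from GEO's platform annotation: of 45101, 34945 had 1 gene symbol, 932 had several, 9211 were not listed and 64 were array controls. Of several probe sets of a gene the brightest on average was kept, which gave 18193 genes, and dim genes were retained.

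Sample titles gave the group and experiment number. Two-sided limma tests (version 3.58.1, R 4.3.3, lmFit with eBayes) were run with group and experiment as terms, Benjamini-Hochberg adjustment over all genes and a threshold of 0.05. This is the paired fit. The experiment term was tested with an F test, and experiments were compared by contrasts, each adjusted over all genes. The design text gives 3 independent experiments with 1 sample of each kind, and deviations of same-numbered arrays from their group means correlated at 0.28, 0.67 and 0.43 over genes. Differently numbered arrays of experiments 1 and 3 correlated at 0.25 and 0.18, so the pairing rests on the design text. The fits were tested on simulated data.

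The genes and lists were chosen with earlier results of these data known. Values on every array were given for genes past 0.05 in either fit or the F test, for the 3 largest positive and the 3 largest negative differences, and for the Ifitm genes. From the other lists, those named by rule were the 4 lowest p among genes past the threshold and the 2 lowest among the rest in the paired fit, and other genes of those lists were picked out after their values were seen. Alternatives were fits without the block or with a random one, other normalizations, filters, probe set rules and priors, log2(value + 16), and leaving out replicates. With arrays, precision is set by the 3 samples per group.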

Additional observations from a re-analysis of the deposited data

How the results depend on the processing

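With the experiment as a random block and with no replicate block, 0 of the 32 genes were called, as in the paired fit (limma), and no replicate block left the median at -0.04. Leaving out replicates gave 0 to 2 genes called higher. The median log2 fold change, -0.04 in the paired fit, became 0.11 without control 2, -0.17 without control 3, -0.20 without E47 2 and 0.0503 without E47 3 (no replicate block). The 2 were Usp18 and Ifitm3 without replicate 1. The count of 10 genes differing between experiments (582 of all genes) became 5 when adjusted over all probe sets (337), 18 with a trend and robust prior (1810), and 0 to 17 when replicates were left out (0 to 1032), so the counts over all genes moved the same way. Of the other lists called with E47, signalling went from 1 to 0 with no replicate block and with a random block, to 2 with bright genes only, with means over probe sets and with the trend prior, and to 0 to 1 without replicates. The other stimulated genes went from 2 to 1 with no replicate block and with a random block, to 4 with bright genes only, and to 0 to 3 without replicates. Receptors went from 0 to 1 under quantile and cyclic loess normalization, to 2 with bright genes only, the trend prior and log2(value + 16), and to 0 to 1 without replicates. Nucleic acid sensing went from 0 to 1 with bright genes only and with means over probe sets, and to 2 with the trend prior, which also took the other regulatory factors from 0 to 1. The cause of these moves was not tested. Of 321 values for single genes under alternatives, 27 uncalled ones changed sign and 0 called ones reversed. Among the 15 dim genes 0 passed the F test, beside 1.22% of all dim genes.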
